A study of Saccharomyces cerevisiae with 12 samples.

Results

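The levels of 10 genes of the yeast cell wall were followed across 4 strains of Saccharomyces cerevisiae, out of 5449 genes of this yeast measured on the same Affymetrix arrays. The 10 members were taken by name and fall into 4 roles. PIR1, PIR3, HSP150 and CIS3 encode the Pir proteins, GSC2 and FKS1 encode catalytic subunits of glucan synthase, SPI1, CWP1 and SED1 encode wall proteins made with a lipid (GPI) anchor, and YGP1 encodes a secreted glycoprotein. All 10 members were found, each with 1 probe set (a group of short probes for 1 transcript), and none of these probe sets carries the suffix that marks sequence shared with other transcripts.

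Each strain was measured in 3 biological replicates with 1 array each. All strains are labelled MATa his3 leu2 met15 ura3. The wild type carries no deletion, the nup60 strain has NUP60 (a nuclear basket protein of the nuclear pore) replaced by a kanamycin resistance gene, the ada2 strain has ADA2 (a subunit of the SAGA histone acetyltransferase) replaced in the same way, and the last group is labelled with both deletions. Cultures of 50 mL of rich medium were grown at 30 °C and harvested in mid-log phase. Each group is 1 strain, and the labels do not name independent clones. Deletion and strain therefore cannot be told apart. A change of RNA in every cell and a change in the share of cells that hold the RNA cannot be told apart in such bulk cultures.

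The yeast wall is a mesh of glucan and chitin covered by mannoproteins. Glucan synthase makes its main fibre, beta-1,3-glucan, at the plasma membrane, with FKS1 as the subunit of vegetative growth and GSC2 (also called FKS2) as the subunit induced by heat, calcium and poor carbon sources. Pir proteins bind beta-1,3-glucan directly, while wall proteins made with a GPI anchor are attached mainly through beta-1,6-glucan. Wall damage is signalled by membrane sensors through Rho1, Pkc1 and the MAP kinase Slt2 to the transcription factor Rlm1, and several wall genes also belong to the general stress response.

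The labels were checked first. NUP60 stood at 12.53 and 12.23 on the log2 intensity scale in the wild type and ada2 groups and at 6.37 and 6.20 in the nup60 group and the labelled double deletion, and ADA2 stood at 10.94 and 10.72 where it is intact and at 4.23 and 4.39 where its deletion is labelled. Of the marker genes that all strains are labelled to lack, MET17 (met15) was below the background of 5.62 in every group (4.90 to 5.08). LEU2 was above background in all 4 groups, at 6.14 to 6.70, and HIS3 stood far higher, at 12.42 to 12.53. The his3 label is therefore not borne out by this probe set. Whether its probes lie outside the altered part of the gene was not tested. The labelled double deletion differed from its labelled genotype in mating-type genes. Summed intensities of 8 a-cell markers (8 of 8 measured) ranged from 10043 to 10055 there against 69629 to 73903 in wild type, 77315 to 86664 in nup60 and 36098 to 39785 in ada2. Those of 5 alpha-cell markers (5 of 6 measured) ranged from 61181 to 73407 against 1563 to 1831, 1994 to 2155 and 1688 to 1813. HMRA1 was below background in the labelled double deletion and HMLALPHA1 and MF(ALPHA)1 were below it in the other 3 groups, while URA3 stood at 12.77 in the labelled double deletion and at 4.38 to 4.59 elsewhere. Each result below on the labelled double deletion therefore also compares mating types and URA3, whose part in it was not tested. Poly-A spike controls averaged 8.39 on wild-type array 1 and 8.53 on array 3 of the labelled double deletion, against 6.40 to 7.49 on the remaining 10. Precision is limited by the number of arrays. The median level of all genes lay between 11.21 and 11.28 on the 12 arrays, and every member was above background on each of them.

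**Figure D1:**
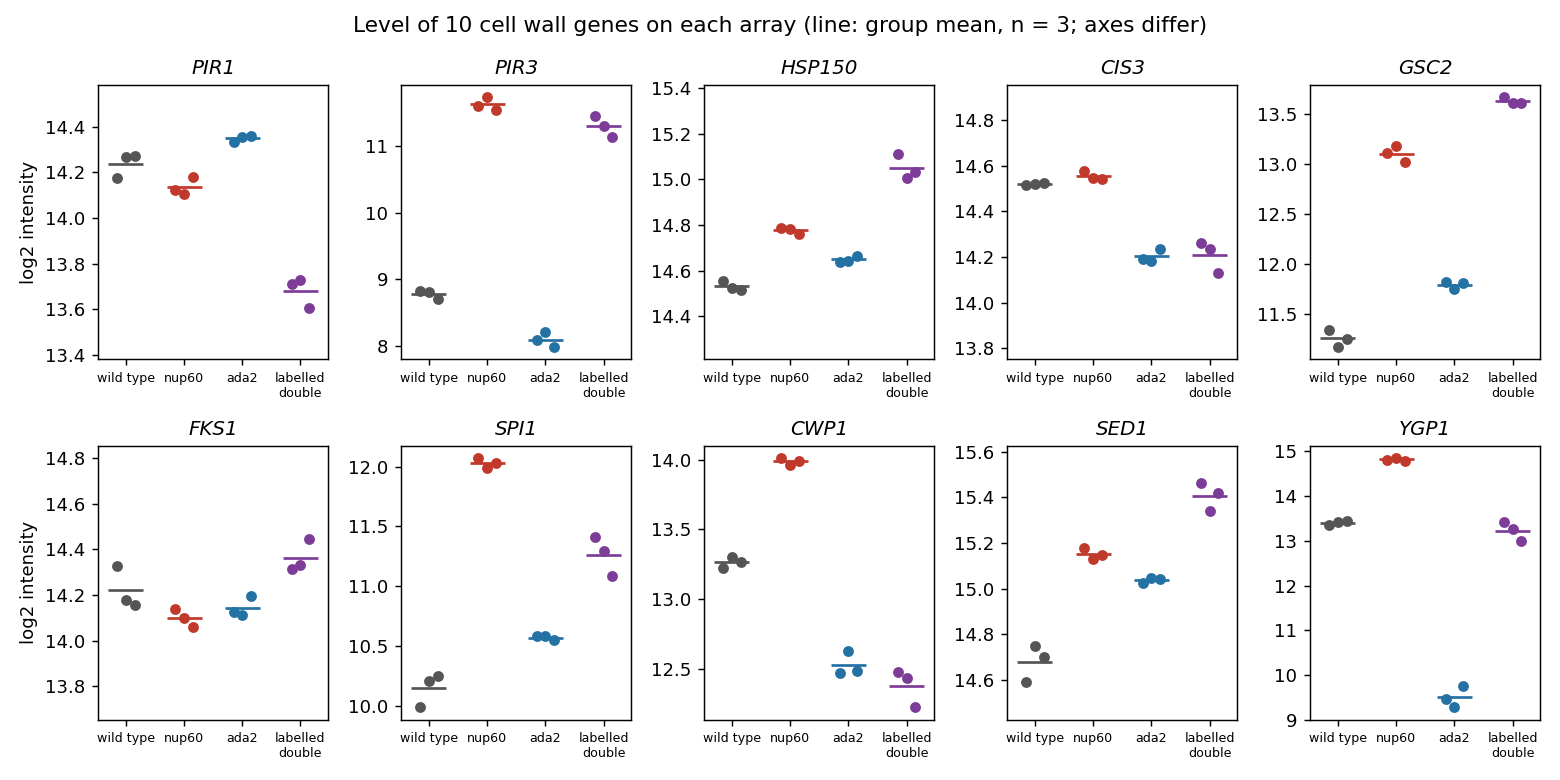
Log2 intensity of each of the 10 wall genes on the 12 arrays (points) with the group mean (line, n = 3); vertical axes differ between panels. PIR3, GSC2 and SPI1 are higher in both groups that lack NUP60 than in wild type and ada2, while YGP1 is lowest in ada2, near 9.50.

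Among the Pir genes PIR3 moved most. Its log2 levels were 8.82, 8.81 and 8.70 on wild-type arrays 1 to 3, 11.61, 11.74 and 11.54 in nup60, 8.08, 8.21 and 7.99 in ada2 and 11.46, 11.31 and 11.13 in the labelled double deletion. Both groups without NUP60 were high, ada2 was lowest, and no array of a group overlapped another group. Against wild type PIR3 rose 7.21-fold in nup60 (2.85 ± 0.086 on the log2 scale, SE, n = 3 per group, limma adjusted p = 1.36e-09), which ranked 9 by size among 5449 genes. In ada2 it fell by 0.69 ± 0.086 in log2 terms (limma adjusted p = 8.13e-05), and in the labelled double deletion it rose by 2.52 ± 0.086 (limma adjusted p = 8.25e-10). The labelled double deletion was slightly below nup60, by -0.33 ± 0.086 (limma adjusted p = 0.00625).

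PIR1 went the other way in the labelled double deletion. Its levels were 14.18, 14.27 and 14.27 in wild type, 14.12, 14.10 and 14.18 in nup60, 14.33, 14.35 and 14.36 in ada2 and 13.71, 13.73 and 13.61 in the labelled double deletion. The labelled double deletion was below every other array, and the wild type and nup60 arrays overlapped. PIR1 fell there by 0.56 ± 0.043 in log2 terms against wild type (limma adjusted p = 4.48e-07) and by 0.67 ± 0.043 against ada2 (limma adjusted p = 1.69e-07). Neither single deletion passed, with -0.10 ± 0.043 in nup60 (limma adjusted p = 0.0658) and 0.11 ± 0.043 in ada2 (0.0554). The nup60 difference passed without wild-type array 1 (-0.13, limma adjusted p = 0.0246) or array 3 of the labelled double deletion (-0.10, 0.0321), and the ada2 difference without the latter array (0.11, 0.026), after centring on the array median (0.14, 0.0377) and after a second quantile normalization (0.13, 0.0188). The direct comparison of nup60 with ada2 did pass (-0.21 ± 0.043, limma adjusted p = 0.00162).

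HSP150, a heat-inducible Pir gene, had levels of 14.55, 14.53 and 14.51 in wild type, 14.64, 14.64 and 14.67 in ada2, 14.79, 14.78 and 14.76 in nup60 and 15.11, 15.01 and 15.03 in the labelled double deletion. The 4 groups formed 4 separate steps. Each step from one strain to the next passed: 0.12 ± 0.034 from wild type to ada2 (limma adjusted p = 0.0165), 0.13 ± 0.034 from ada2 to nup60 (0.00952) and 0.27 ± 0.034 from nup60 to the labelled double deletion (4.55e-05). The first step was lost without wild-type array 3 (0.11, limma adjusted p = 0.0533) or ada2 array 3 (0.11, 0.0584). Over all 3 steps the rise was 1.43-fold.

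CIS3, the fourth Pir gene, was lower in both groups labelled with an ADA2 deletion. Levels of 14.51, 14.52 and 14.52 in wild type and 14.58, 14.55 and 14.54 in nup60 stood against 14.19, 14.18 and 14.24 in ada2 and 14.26, 14.23 and 14.13 in the labelled double deletion. Those last groups overlapped each other and lay below all other arrays. CIS3 fell by 0.32 ± 0.038 in log2 terms in ada2 (limma adjusted p = 6.16e-05) and by 0.31 ± 0.038 in the labelled double deletion (1.96e-05), both against wild type. The difference of nup60 from wild type was 0.035, with a 95% interval from -0.048 to 0.12, and that of the labelled double deletion from ada2 was 0.0037, with an interval from -0.080 to 0.087. Differences of the 4 Pir genes from wild type thus ranged from -0.10 (PIR1) to 2.85 (PIR3) in nup60 and from -0.69 (PIR3) to 0.12 (HSP150) in ada2.

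The Pir genes lie in adjacent pairs. PIR1 and PIR3 are neighbours on chromosome XI and, by the strand letters of YKL164C and YKL163W, are transcribed away from each other, while HSP150 and CIS3 are neighbours on chromosome X and run towards each other. In the labelled double deletion both pairs split, with PIR3 up and PIR1 down and with HSP150 up and CIS3 down. In ada2 HSP150 rose while CIS3 fell. PIR5, a further Pir-like gene on the other side of HSP150, fell by 0.14 ± 0.053 in nup60 (limma adjusted p = 0.0419) and by 0.43 ± 0.053 in the labelled double deletion (2.18e-05), and rose by 0.18 ± 0.053 in ada2 (0.0178). The differences of PIR1 had the same 3 signs, although only that of the labelled double deletion passed. FAR1, which encodes a Cdk inhibitor of the mating response, neighbours CIS3 and fell by 2.77 in ada2.

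The glucan synthase genes differed from each other. GSC2 had levels of 11.35, 11.17 and 11.25 in wild type, 11.83, 11.75 and 11.81 in ada2, 13.12, 13.19 and 13.02 in nup60 and 13.67, 13.62 and 13.61 in the labelled double deletion. The 4 groups were separate and in that order. Against wild type GSC2 rose by 0.54 ± 0.053 in ada2 (1.45-fold, limma adjusted p = 1.58e-05), by 1.85 ± 0.053 in nup60 (3.61-fold, 9.77e-10) and by 2.38 ± 0.053 in the labelled double deletion (5.20-fold, 3.73e-11). Starting from ada2, the labelled double deletion was higher by 1.84 ± 0.053 (3.58-fold, limma adjusted p = 5.19e-10), close in size to the nup60 difference from wild type.

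FKS1 stayed within a narrow range. Its levels were 14.33, 14.18 and 14.16 in wild type, 14.14, 14.10 and 14.06 in nup60, 14.13, 14.11 and 14.20 in ada2 and 14.31, 14.33 and 14.45 in the labelled double deletion. Wild-type array 1, one of the arrays with high spike controls, reached into the range of the labelled double deletion. Neither single deletion passed: the difference was -0.12 in nup60, with a 95% interval from -0.24 to -0.0023 (limma adjusted p = 0.0815), and -0.076 in ada2, with an interval from -0.19 to 0.042 (0.27). In the labelled double deletion FKS1 rose by 0.14 ± 0.054 (limma adjusted p = 0.033). It no longer passed without wild-type array 2 (0.12, limma adjusted p = 0.102), wild-type array 3 (0.11, 0.122) or array 3 of the labelled double deletion (0.10, 0.116). It was higher there than in nup60 (0.26 ± 0.054, limma adjusted p = 0.00145) and in ada2 (0.22 ± 0.054, 0.00385). FKS3, a relative of both genes, did not pass in nup60 (-0.024) and rose by 0.71 ± 0.084 in ada2 (limma adjusted p = 5.68e-05) and by 0.98 ± 0.084 in the labelled double deletion (1.21e-06). FKS1's next neighbour YLR342W-A fell by 0.75 in nup60 and by 1.02 in ada2 although FKS1 itself did not pass in either.

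Of the genes for anchored wall proteins, SPI1, a stress gene also induced by weak acids, had levels of 9.98, 10.21 and 10.24 in wild type, 10.58, 10.58 and 10.54 in ada2, 11.41, 11.29 and 11.08 in the labelled double deletion and 12.07, 11.99 and 12.03 in nup60. The groups did not overlap, and nup60 was highest. SPI1 rose 3.70-fold in nup60 (1.89 ± 0.083, limma adjusted p = 2.36e-08), 2.17-fold in the labelled double deletion (1.12 ± 0.083, 3.32e-07) and 1.34-fold in ada2 (0.42 ± 0.083, 0.00176). From nup60 to the labelled double deletion it fell by 0.77 ± 0.083 (limma adjusted p = 1.52e-05).

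CWP1, which encodes a mannoprotein linked to beta-1,6-glucan, moved in opposite directions in the single deletions. Levels were 13.22, 13.30 and 13.27 in wild type, 14.01, 13.96 and 13.99 in nup60, 12.47, 12.62 and 12.48 in ada2 and 12.47, 12.43 and 12.22 in the labelled double deletion. The nup60 arrays were all above wild type, and both groups labelled with an ADA2 deletion were below it and overlapped each other. CWP1 rose by 0.73 ± 0.065 in nup60 (limma adjusted p = 7.04e-06) and fell by 0.74 ± 0.065 in ada2 (6.60e-06) and by 0.89 ± 0.065 in the labelled double deletion (3.06e-07). The difference between the labelled double deletion and ada2 did not pass (-0.15, 95% interval from -0.29 to -0.0057, limma adjusted p = 0.0611), but it did without array 1 of the labelled double deletion (-0.20, 0.0263). It also passed after centring on the array median (-0.20, limma adjusted p = 0.0211), after a second quantile normalization (-0.17, 0.0322) and with an intensity trend (-0.15, 0.0432). CWP2, the neighbouring gene of a related mannoprotein, did not pass in nup60 (0.079) or ada2 (-0.043).

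SED1, which encodes an abundant stress-induced wall protein related to Spi1, had levels of 14.59, 14.75 and 14.70 in wild type, 15.02, 15.05 and 15.04 in ada2, 15.18, 15.13 and 15.15 in nup60 and 15.46, 15.34 and 15.42 in the labelled double deletion. Every deletion group lay above all wild-type arrays. SED1 rose by 0.36 ± 0.046 in ada2 (limma adjusted p = 9.90e-05), 0.47 ± 0.046 in nup60 (1.26e-05) and 0.73 ± 0.046 in the labelled double deletion (9.09e-08). The step between ada2 and nup60 was 0.12 ± 0.046 (limma adjusted p = 0.054), and it passed without wild-type array 1 (0.0197), wild-type array 2 (0.0449) or array 2 of the labelled double deletion (0.0449). It also passed after a second quantile normalization (0.11, limma adjusted p = 0.0383), with an intensity trend (0.0192), with array weights (0.0049), in a fit of only the groups compared (0.0050) and without both arrays of high spike level (0.0132). The size of the step was 0.11 to 0.12 in all of these fits. SPI1 and SED1 both rose in each deletion strain but had different highest strains, nup60 for SPI1 and the labelled double deletion for SED1.

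YGP1 had the widest range of the 10 genes. It encodes a secreted glycoprotein known to be induced as nutrients run out. Its levels were 13.36, 13.41 and 13.45 in wild type, 14.81, 14.85 and 14.79 in nup60, 9.46, 9.28 and 9.76 in ada2 and 13.42, 13.27 and 12.99 in the labelled double deletion. The ada2 arrays were far below all others, nup60 was highest, and the labelled double deletion overlapped wild type. YGP1 fell by 3.91 ± 0.12 in log2 terms in ada2 (15.0-fold, limma adjusted p = 2.12e-09), which ranked 3 by size among all genes, and rose by 1.41 ± 0.12 in nup60 (2.66-fold, 4.84e-06). The labelled double deletion differed from wild type by -0.18, with a 95% interval from -0.44 to 0.088 (limma adjusted p = 0.202). Compared directly, nup60 was 39.9-fold above ada2 (5.32 ± 0.12, limma adjusted p = 1.89e-10). SPS100, a spore wall gene related to YGP1, rose in nup60 by 1.43 ± 0.087 (limma adjusted p = 3.21e-07) but also in ada2, by 0.60 ± 0.087 (2.60e-04).

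**Figure D2:**
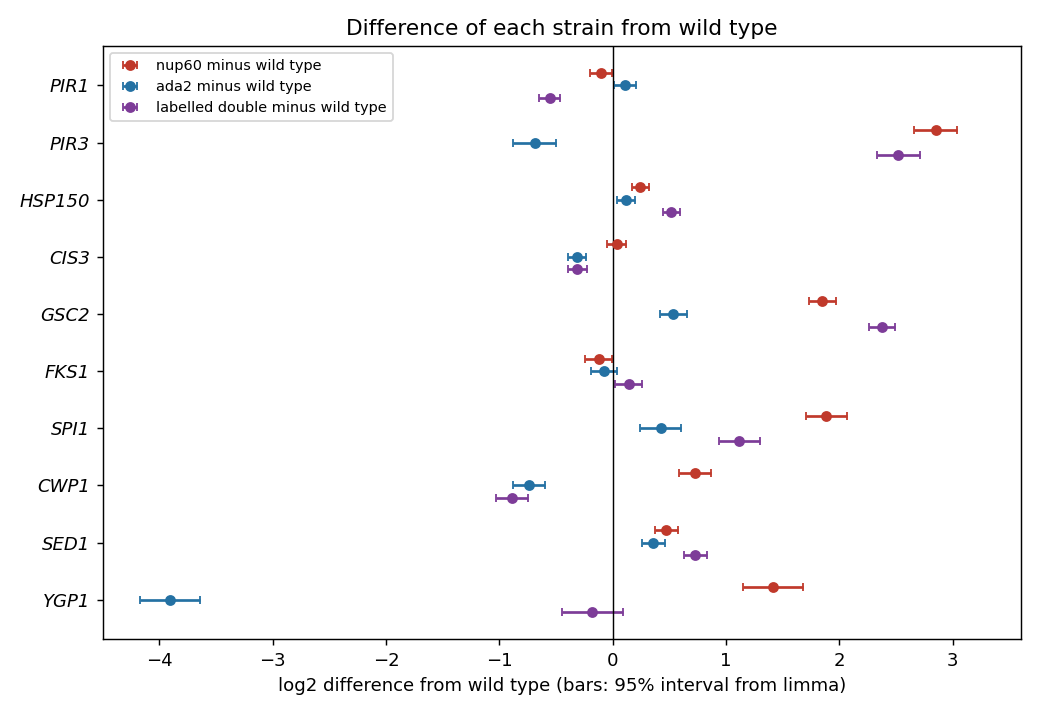
Log2 difference of each strain from wild type for the 10 genes, with 95% intervals from limma (n = 3 arrays per group). PIR3, GSC2 and SPI1 lie to the right in nup60 and the labelled double deletion, and YGP1 lies at -3.91 in ada2 alone.

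Over the set, 7 of the 10 members rose and 0 fell in nup60, where 25.1% of all genes rose and 26.2% fell. The members were chosen with earlier results of these data known, so these counts are a description and not a test. The count of 0 that fell became 1, PIR1, without wild-type array 1, without array 3 of the labelled double deletion, without both or with array weights, and 2, PIR1 and FKS1, with an intensity trend. The members' median difference was 0.60, against -0.024 for all genes. Of the 7 that rose, 4 members, PIR3, GSC2, SPI1 and YGP1, rose at least 2-fold, as did 2.61% of all genes. In ada2, 4 rose and 4 fell, against 22.7% and 23.0% of all genes, with a median of 0.017 against -0.013. Only YGP1 passed with a 2-fold change there, a fall, while 1.25% of all genes rose and 1.06% fell that far. In the labelled double deletion 6 rose and 3 fell, against 36.1% and 37.1%, with a median of 0.33 against -0.0056. The 9 calls stand against 73.2% of all genes, and 3 members, PIR3, GSC2 and SPI1, rose at least 2-fold (7.41% of all genes). These comparisons share the wild-type arrays. Set against nup60, the labelled double deletion was higher in 4 members and lower in 6 (33.1% and 30.6% of all genes), and set against ada2 it was higher in 7 and lower in 1, PIR1 (35.2% and 33.9%). CWP1 joined PIR1 as lower without array 1 of the labelled double deletion and under 3 other settings given above. In the direct comparison of nup60 with ada2, 7 members were higher in nup60 and 1, PIR1, was lower (25.9% and 26.9% of all genes), and the members' median was 0.83 against -0.014.

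The levels of the members were also set against the top of the scale. A mean level of at least 14 was reached by 5 members (PIR1, HSP150, CIS3, FKS1 and SED1), where the brightest value on any array was 15.66. Of the 341 genes in that range 0 passed with a 2-fold change in nup60 against wild type, while 145 of the 5108 other genes did. The median size of the nup60 difference was 0.070 in the bright range and 0.18 elsewhere. In ada2 against wild type 2 bright genes and 124 others passed with a 2-fold change. In the labelled double deletion against wild type 2 bright genes and 528 others did. The part of signal range in the small differences of these 5 members was not tested.

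The departure of the labelled double deletion from the sum of both single differences was computed next. Of the members 7 passed, 4 above the sum and 3 below it, where 20.6% and 18.5% of all genes did. The 4 above the sum became 2 after centring on the array median, without nup60 array 3 or without ada2 array 1. YGP1 had the largest departure, 2.31 ± 0.17 (limma adjusted p = 4.51e-06): the single differences add up to -2.49 and the labelled double deletion stood at -0.18. Read the other way, the labelled double deletion exceeded ada2 13.2-fold in YGP1 whereas nup60 exceeded wild type 2.66-fold.

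SPI1 and CWP1 fell short of their sums. SPI1 had a sum of 2.31 and an observed difference of 1.12 (departure -1.19 ± 0.12, limma adjusted p = 3.36e-05). For CWP1 the opposite single differences add up to -0.012, and the observed value was -0.89 (departure -0.87 ± 0.092, 5.25e-05). PIR1 likewise had a sum of 0.0080 and an observed value of -0.56 (departure -0.56 ± 0.060, 5.90e-05). These 3 genes were therefore lower than the single deletions would add up to.

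FKS1 departed upward by 0.34 ± 0.076 (limma adjusted p = 0.00551), PIR3 by 0.36 ± 0.12 (0.0371) and HSP150 by 0.16 ± 0.048 (0.0264). The calls of PIR3 and HSP150 lie near the threshold. Over the fits without 1 array their departures kept their sign and ranged from 0.28 to 0.44 for PIR3 and from 0.13 to 0.18 for HSP150. That of PIR3 no longer passed without any 1 of 8 arrays (arrays 1 and 2 of wild type and of the labelled double deletion, arrays 1 and 3 of nup60 and of ada2), with values of 0.28 to 0.36 and an adjusted p between 0.0633 and 0.0907. That of HSP150 no longer passed without any 1 of 4 arrays (arrays 2 and 3 of nup60, arrays 1 and 2 of ada2), with values of 0.15 to 0.16 and an adjusted p between 0.0506 and 0.068. After centring both were lost as well (0.31, limma adjusted p = 0.063, and 0.11, 0.116). GSC2, CIS3 and SED1 did not pass, with departures of -0.011 (95% interval from -0.18 to 0.16), -0.031 (-0.15 to 0.087) and -0.10 (-0.25 to 0.040). GSC2 is thus the member with a large change whose values in the 4 strains lay closest to a sum of single differences.

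**Figure D3:**
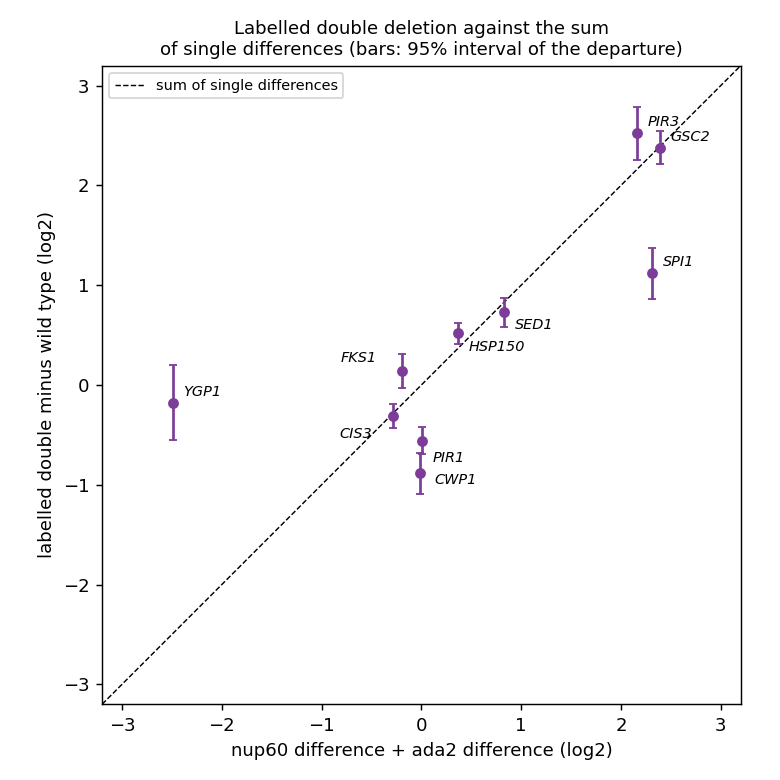
Log2 difference of the labelled double deletion from wild type (vertical) against the sum of the nup60 and ada2 differences (horizontal) for the 10 genes; bars are 95% intervals of the departure from the dashed line of equality. GSC2, CIS3 and SED1 have intervals that reach the line, YGP1 lies 2.31 above it, and SPI1 1.19 below it.

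Genes of the same pathways were counted from lists by function. Like the members, the lists were chosen with earlier results of these data known. The lists overlap: PST1 and YPS3 count as Slt2/Rlm1-linked and anchored, CTS1 as chitin and daughter separation, EGT2 as anchored and daughter separation. Counts are to be read against all genes, of which 25.1% rose and 26.2% fell in nup60 (median -0.024). These shares were 22.7% and 23.0% in ada2 (median -0.013), and 36.1% and 37.1% in the labelled double deletion (median -0.0056). In integrity signalling 11 of 24 genes (45.8%) rose and 6 (25.0%) fell in nup60, the falls being near the 26.2% of all genes, with a median of 0.061. The largest changes were those of ROM1, an activator of Rho1 (1.38 ± 0.12), SDP1, a phosphatase of Slt2 (1.21 ± 0.078), and the sensor gene MTL1 (0.85 ± 0.068). In ada2 3 rose (12.5%) and 6 fell (25.0%), with a median of -0.016. The largest changes there were the falls of PTP3 (-0.43 ± 0.064) and BEM2 (-0.43 ± 0.078) and a rise of MTL1 (0.37 ± 0.068). In the labelled double deletion 14 rose (58.3%) and 5 fell (20.8%), against 36.1% and 37.1% of all genes, with a median of 0.40. Wild-type array 1 stood apart for ROM1, at 8.63 against 8.24 and 8.09 on the other wild-type arrays. It was also the higher for PTP3 (10.88 against 10.64 and 10.59) and BEM2 (12.60 against 12.33 and 12.36), which fell. How far named falls in this and other lists rest on that array was not tested.

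Of 11 measured targets linked to Slt2 and Rlm1, 8 rose (72.7%) and 0 fell in nup60, where 25.1% and 26.2% of all genes did (median 0.65). The largest were CRG1 (1.69 ± 0.036), SRL3 (1.32 ± 0.054) and KDX1, which encodes a relative of Slt2 (1.31 ± 0.081). In ada2 6 rose (54.5%) and 3 fell (27.3%), against 22.7% and 23.0% of all genes (median 0.11). The falls were those of YPS3, an anchored protease gene (-1.28 ± 0.083), PRM5 (-0.88 ± 0.073) and SRL3 (-0.81 ± 0.054). In the labelled double deletion 11 of 11 rose, against 36.1% of all genes (median 0.91), with CRG1 at 2.89 ± 0.036 and KDX1 at 2.52 ± 0.081. For CRG1 the 12 arrays were separate by strain in the order of GSC2: 8.69 to 8.71 in wild type, 9.32 to 9.39 in ada2, 10.36 to 10.44 in nup60 and 11.54 to 11.61 in the labelled double deletion.

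Of 28 glucan assembly and remodelling genes 11 rose (39.3%) and 8 fell (28.6%) in nup60, against 25.1% and 26.2% of all genes, with a median of 0.059. In ada2 10 rose (35.7%) and 9 fell (32.1%), against 22.7% and 23.0%, with a median of 0.030. In the labelled double deletion 15 rose (53.6%) and 9 fell (32.1%), against 36.1% and 37.1%, with a median of 0.30. NCA3, a gene of the SUN family of wall proteins, had the largest change in both single deletions. It rose by 3.04 ± 0.14 in nup60 and fell by 1.80 ± 0.14 in ada2, the same signs as YGP1, PIR3 and CWP1, and its levels were 9.22, 9.10 and 9.06 in wild type against 9.82, 9.44 and 9.33 in the labelled double deletion. GAS2 (-0.62 ± 0.12) and KRE5 (-0.49 ± 0.12), the latter needed for beta-1,6-glucan, fell in nup60, and CRR1 fell in ada2 (-0.91 ± 0.10). Wild-type array 1 was above the other wild-type arrays for GAS2 (9.36 against 8.99 and 8.82) and KRE5 (11.33 against 10.92 and 10.82), but not for CRR1.

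Of 13 chitin genes 2 rose (15.4%) and 1 fell (7.69%) in nup60, both shares below the 25.1% and 26.2% of all genes (median 0.0065). CHS2, the chitin synthase of the septum, stood at 0.25 ± 0.047 and the chitinase gene CTS1 at -0.19 ± 0.042. In ada2 5 rose (38.5%) and 3 fell (23.1%), the falls being near the 23.0% of all genes. Among the falls were CHS1 (-0.51 ± 0.079) and SKT5, the activator of chitin synthase III (-0.40 ± 0.048). In the labelled double deletion 9 rose (69.2%) and 1 fell (7.69%), against 36.1% and 37.1% (median 0.26). Of 19 genes for other anchored wall proteins 9 rose (47.4%) and 4 fell (21.1%) in nup60, against 25.1% and 26.2% (median 0.13). In ada2 4 rose (21.1%) and 5 fell (26.3%), near the 22.7% and 23.0% of all genes (median 0.085). In the labelled double deletion 11 rose (57.9%) and 4 fell (21.1%), against 36.1% and 37.1% (median 0.25). PST1 rose in nup60 (0.65 ± 0.047), PLB2 (-0.83 ± 0.088) and FIT1 (-0.63 ± 0.10) fell there, and the iron-related mannoprotein genes FIT2 (1.40 ± 0.19) and FIT3 (1.04 ± 0.21) rose in ada2.

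Pir proteins are O-mannosylated and cut by the protease Kex2 on their way to the wall. Of 12 genes of these steps 1 rose (8.33%) and 6 fell (50.0%) in nup60, against 25.1% and 26.2% of all genes (median -0.16 against -0.024), among them the mannosyltransferase genes PMT3 (-0.41 ± 0.064), PMT5 (-0.41 ± 0.095) and PMT1 (-0.39 ± 0.11). In ada2 2 rose (16.7%) and 3 fell (25.0%), near the 22.7% and 23.0% of all genes (median 0.0086), with KEX2 at -0.32 ± 0.10. In the labelled double deletion 3 rose (25.0%) and 6 fell (50.0%), against 36.1% and 37.1% (median -0.15). Wild-type array 1 was the highest wild-type array for PMT3 (11.38 against 11.16 and 11.12) and PMT5 (10.53 against 10.18 and 10.15). The same held for PMT1 (13.34 against 12.99 and 12.89) and KEX2 (11.56 against 11.26 and 11.08). The nup60 arrays lay below every wild-type array for PMT3 (10.78 to 10.83), PMT5 (9.87 to 9.89) and PMT1 (12.62 to 12.71). The ada2 arrays did so for KEX2 (10.90 to 11.03). How far the size of these falls rests on wild-type array 1 was not tested. Genes of daughter cell separation, a group transcribed at the end of mitosis, counted 5 of 16 up (31.2%) and 7 down (43.8%) in nup60, with a median of -0.067. They counted 2 up (12.5%) and 5 down (31.2%) in ada2 (median 0.0011), and 2 up (12.5%) and 11 down (68.8%) in the labelled double deletion, against 36.1% and 37.1% of all genes (median -0.40). PRY3 had the largest change in both single deletions, -0.94 ± 0.040 in nup60 and 0.60 ± 0.040 in ada2. DSE1 (-0.56 ± 0.065) and EGT2 (-0.51 ± 0.047) fell in nup60. Of 8 calcineurin genes 3 rose (37.5%) and 2 fell (25.0%) in nup60, the falls near the 26.2% of all genes (median 0.0038). In ada2 3 rose (37.5%) and 1 fell (12.5%) (median 0.055). RCN2, a calcineurin regulator, stood at 0.80 ± 0.053 in nup60 and 0.41 ± 0.053 in ada2. In the labelled double deletion 6 calcineurin genes rose (75.0%) and 1 fell (12.5%), against 36.1% and 37.1% (median 0.22).

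**Figure D4:**
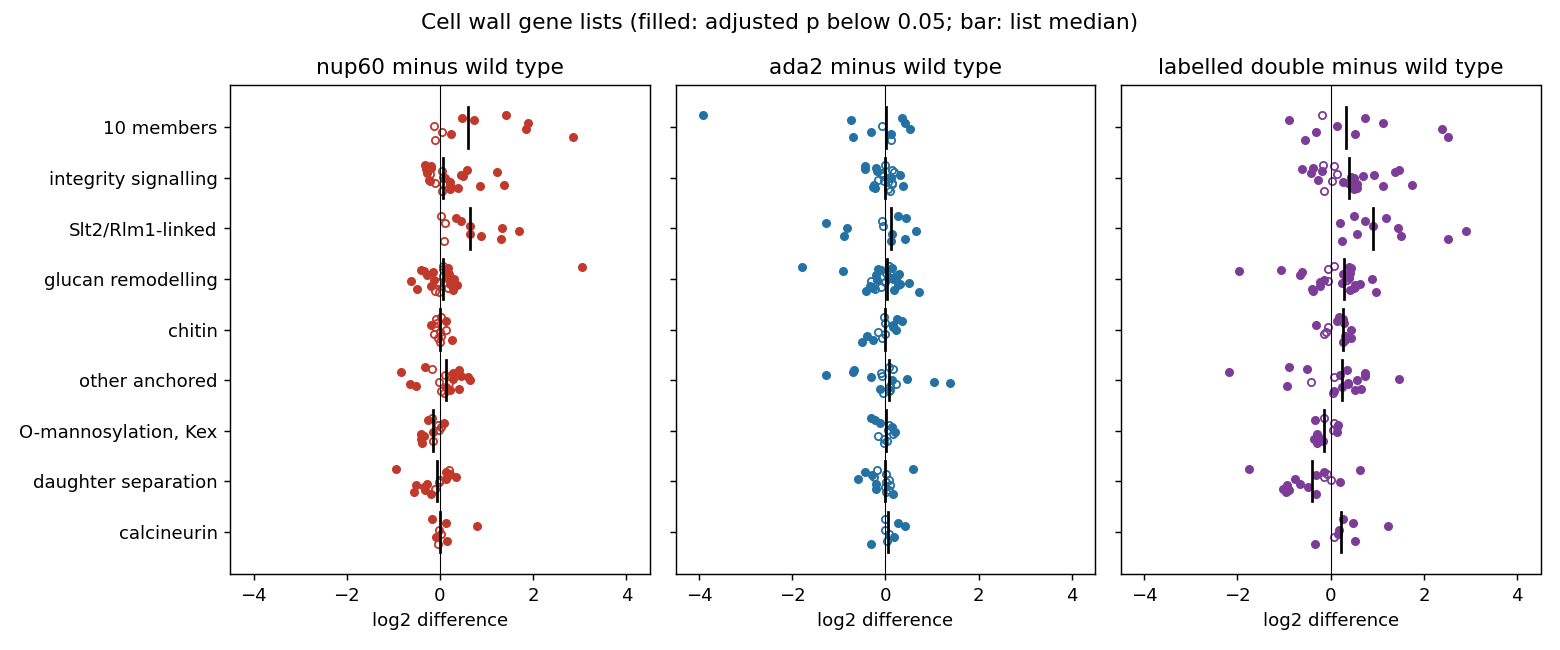
Log2 difference from wild type of each gene (points) of 8 lists and of the 10 members, in nup60, ada2 and the labelled double deletion; filled points have an adjusted p below 0.05 and bars are list medians. The median of the members is 0.60 in nup60 and 0.017 in ada2, and that of the Slt2/Rlm1-linked genes is 0.65 and 0.11.

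The genes whose levels were most like those of each member were ranked by Pearson's r over the 12 arrays, which share 4 strains, so that r mostly reflects differences between strains. The 3 nearest genes were HUG1 (0.995), PBI2 and PNC1 for PIR3, YHR138C (0.995), RNR3 and TMA10 for GSC2, YRO2 (0.991), CLB6 and RCF2 for YGP1 and PGM2 (0.987), TGL2 and NQM1 for SPI1. They were KRE1 (0.993), PEP4 and YOR062C for SED1, HOF1 (0.979), AGA2 and ELO1 for CWP1, AAD4 (0.991), GAC1 and NDI1 for HSP150, and ADE17 (0.995), HXK2 and YIP3 for PIR1. For CIS3 they were MEP3 (0.988), MFA1 and ADA2 itself, and for FKS1 HKR1 (0.979), PMD1 and VTC3. No member was among the 3 nearest genes of another member.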

How the data were processed

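The values were the authors' deposited intensities per probe set, made by RMA in Affymetrix Expression Console 1.1, as the submitters' processing notes say; its settings are not given in the sources used here. They were on a linear scale, from 11.4 to 51828, although log2 values had been planned for, so log2 was taken. Of 10928 probe sets, 5498 belong to 5449 S. cerevisiae genes, with the brightest kept per gene. The background, 5.62, was the 95th percentile of the mean levels of 1746 probe sets whose genes are not in the S. cerevisiae gene table. Names and neighbours came from a RefSeq gene table, and no sequence was used here. limma 3.58.1 (R 4.3.3; 8 residual and 2.58 prior degrees of freedom) was fitted to all genes and 12 arrays, with two-sided tests and Benjamini-Hochberg adjustment over 5449 genes within each of 7 comparisons. Calls have an adjusted p below 0.05. The procedure was also run on simulated arrays with independent noise and few changed genes. That setting differs from these data, so it does not show how the procedure behaves here. Figures were drawn in Python 3.11.15.

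The members, lists and tests were chosen with earlier results of these data known. Named were all members, their relatives and some neighbours, the 3 genes nearest each member and label-check genes. Of each list the 3 largest calls per single deletion were named, some given as counts only. Neighbours otherwise left out include YKL162C beside PIR3 (0.49 in nup60, 0.69 in ada2) and TIM21 beside GSC2 (-0.31 and -0.27). Some listed genes, NCW2, CCW22 and ENA1 among them, were not analysed here. YLR342W-A, FAR1, CWP2 and the other values of list genes in the labelled double deletion were picked after their values were seen. Alternatives were 11 other settings, each of 12 arrays left out, and, added after seeing the data, a fit without both arrays of high spike level. Replicate numbers in the titles were not used to pair the arrays in the principal fit. Same-numbered arrays did not deviate together more often than others, as given below, which cannot show that the arrays were unpaired.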

Additional observations from a re-analysis of the deposited data

Results flagged for a closer look

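Of the 10 genes 7 had a deletion effect that differed between strain backgrounds by the interaction term of limma, read as the departure of the labelled double deletion from the sum of single differences on the log2 scale. Among all genes 20.6% departed upward and 18.5% downward, against 4 and 3 of the 10 members. These departures were 2.31 for YGP1, -1.19 for SPI1, -0.87 for CWP1, -0.56 for PIR1, 0.36 for PIR3, 0.34 for FKS1 and 0.16 for HSP150. For YGP1 the ADA2 deletion went with a fall of 15.0-fold beside intact NUP60 and 3.01-fold beside its deletion. Mating-type genes and URA3 differ in the same arrays, and their part was not tested. Without wild-type array 1 and array 3 of the labelled double deletion the 7 values were 2.46, -1.02, -0.78, -0.50, 0.42, 0.24 and 0.15, all still called, in a fit added after seeing the data. PIR3 and HSP150 lost their calls after centring on the array median (0.31, limma adjusted p = 0.063, and 0.11, 0.116) and in some fits without a single array. No formal search for outlying arrays was made in these groups of 3. The lowest correlation between arrays of a group was 0.993 in wild type and 0.994 in the labelled double deletion. It was 0.999 in nup60 and in ada2.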

How the results depend on the processing

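The number of members called in either direction moved by at most 1.5 times in each comparison: of 10 members, 7 to 9 were called in nup60 against wild type, 7 to 9 in ada2, 8 to 9 in the labelled double deletion, and 5 to 7 for the departure from the sum. Counts by direction moved further in 3 cases. Members that fell in nup60, 0 in the principal fit, were 2 with an intensity trend, 1 with array weights, 1 without both arrays of high spike level and 0 to 1 without single arrays. Members lower in the labelled double deletion than in ada2, 1 in the principal fit, were 2 after centring, after quantile normalization and with an intensity trend, and 1 to 2 without single arrays. Departures above the sum, 4 in the principal fit, were 2 after centring and 2 to 4 without single arrays. For single members, 1614 of the recomputed differences kept direction and call, 24 gained a call, 21 lost one and 11 turned sign. With the replicate number as a block these 4 counts were 7, 8, 8 and 7, and FKS1 in the labelled double deletion no longer passed (0.14, limma adjusted p = 0.052). It changed no other member's call. Same-numbered arrays deviated together in 4 of 18 pairs at a correlation over 0.1, against 12 of 36 pairs of different number. Only 1 of 12 arrays was closest to its own number. Across groups the highest correlation, 0.73, was between wild-type array 1 and array 3 of the labelled double deletion, the arrays of high spike level. FKS1 in the labelled double deletion was also lost in a fit of only the groups compared (0.14, limma adjusted p = 0.105), and the departures of PIR3 and HSP150 after centring (0.31, 0.063 and 0.11, 0.116). PIR1 passed in both single deletions with an intensity trend (limma adjusted p = 0.03 in nup60 and 0.0236 in ada2) or array weights (0.000998 and 0.0232), and FKS1 in nup60 with the trend (0.0459). Signs turned only for differences that were not called in the principal fit: CIS3 in the labelled double deletion against ada2 after centring (-0.044), after quantile normalization (-0.0017) and without single arrays (-0.023 to 0.042), the CIS3 departure without single arrays (-0.057 to 0.0076) and without both arrays of high spike level (0.011), and the GSC2 departure without single arrays (-0.055 to 0.030). The causes were not tested.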
